A study of Mus musculus with 45 samples.

Results

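The 7 genes described here encode proteins that act when muscle cells fuse or when the muscle membrane is formed and repaired: Mymk, Mymx, Jam2, Jam3, Cav3, Dysf and Myof. They were chosen by name, with earlier results of these data known, and the reads of each gene were summed over its transcripts. They are 7 of 35675 genes quantified, and all 7 were among the 17325 genes that passed the filter on low counts and were tested. The 45 bulk RNA-seq libraries formed 15 groups of 3, and every group carried the genotype Tg:Pax7-nGFP/C57BL6;DBA2, a nuclear GFP reporter of Pax7, the transcription factor of muscle stem cells. The starting cells were mouse embryonic fibroblasts (MEFs) that carry MyoD, a muscle transcription factor, under control of doxycycline, sampled untreated. Others were sampled after 2, 4, 6, 8 or 10 days of doxycycline, either alone (MyoD alone, labelled as myotubes) or together with the small molecules that the labels abbreviate to F/R/C (labelled as muscle fibers and progenitor cells). The reference groups were bulk induced myogenic progenitor cells (iMPCs), kept in F/R/C medium after 13 days of doxycycline with F/R/C and described as established clones that no longer need doxycycline, and bulk primary myoblasts from skeletal muscle. Pax7-GFP-positive cells sorted from iMPCs and from myoblasts formed the last 2 groups, and these went straight into lysis buffer. The labels do not say whether replicates came from separate cultures or animals, so the p-values measure the spread between these libraries, which may be technical.

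Muscle fibres arise when committed myoblasts leave the cell cycle, adhere to each other and merge their membranes. Mymk (myomaker) is a muscle membrane protein needed for the merger, and Mymx (myomixer) is a very small membrane protein that completes it. Jam2 and Jam3 are junctional adhesion molecules that bind each other across neighbouring cells. Cav3 is the muscle form of caveolin, the coat protein of membrane pits called caveolae, while Dysf (dysferlin) and Myof (myoferlin) are ferlins, calcium-binding proteins that take part in membrane patching and in vesicle and membrane traffic. Loss of dysferlin causes a muscular dystrophy.

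The genes lie on 6 chromosomes of GRCm38, and all are annotated as protein coding in GENCODE M21. Mymk spans chromosome 2 from 27061636 to 27072179 on the minus strand, Mymx chromosome 17 from 45600971 to 45602102 on the minus strand, Jam2 chromosome 16 from 84774123 to 84825928 on the plus strand, and Jam3 chromosome 9 from 27097384 to 27155421 on the minus strand. Cav3 (112459505 to 112472872) and Dysf (84008590 to 84211060) both lie on the plus strand of chromosome 6, and Myof spans chromosome 19 from 37899036 to 38043577 on the minus strand. Their sizes differ widely: the transcript with the most reads encodes 84 amino acids in Mymx, 151 in Cav3, 221 in Mymk, 298 in Jam2, 310 in Jam3, 2061 in Myof and 2083 in Dysf. Read counts scaled to library size (CPM) of a ferlin and of a small protein therefore do not compare. Levels are compared between genes as TPM, which are scaled to length as well as depth. The exception is the ratio of Dysf to Myof, ferlins of similar length, which is given in reads.

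Dysf has 2 start regions, and the data below divide its reads between them. The first stretch precedes the upstream start and the second the downstream start, 10795 bases further on. Cav3 is shown beside them because it lies on the same chromosome and, unlike Dysf, was close to 0 in MEFs. Each stretch runs from 250 to 11 bases before the start that RefSeq gives (GRCm38.p6, plus strand, 5′ to 3′), and capitals mark every match to CANNTG, the E-box that MyoD and related factors bind. RefSeq promoters were at hand for 3 of the 7 genes (Cav3, Dysf and Myof).
Dysf upstream, chr6:84008348-84008587: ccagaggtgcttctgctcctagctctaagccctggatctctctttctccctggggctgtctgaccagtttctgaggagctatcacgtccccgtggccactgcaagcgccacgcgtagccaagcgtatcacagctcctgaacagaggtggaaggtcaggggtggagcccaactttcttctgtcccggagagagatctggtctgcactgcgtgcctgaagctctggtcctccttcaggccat
Dysf downstream, chr6:84019136-84019375: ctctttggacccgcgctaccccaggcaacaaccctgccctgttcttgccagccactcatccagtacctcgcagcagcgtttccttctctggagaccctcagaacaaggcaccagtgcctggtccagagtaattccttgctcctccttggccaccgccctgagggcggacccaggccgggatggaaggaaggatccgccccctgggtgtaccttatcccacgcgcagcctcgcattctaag
Cav3, chr6:112459255-112459494: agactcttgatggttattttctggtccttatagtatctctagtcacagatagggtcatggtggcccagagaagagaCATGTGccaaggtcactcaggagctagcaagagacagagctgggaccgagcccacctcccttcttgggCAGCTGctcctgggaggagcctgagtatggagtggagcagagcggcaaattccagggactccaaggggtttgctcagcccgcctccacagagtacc
The Cav3 stretch holds 2 matches, CATGTG and then CAGCTG, whereas neither Dysf stretch holds any. The stretch of Myof, not shown, holds none either. Across 32851 RefSeq promoters the same stretch holds CANNTG in 65.0% and CAGCTG, which reads alike on both strands, in 12.4%. A match describes the letters only.

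Library totals ran from 15643670 to 36279316 reads, and log2 CPM of replicates correlated with r from 0.929 to 0.984 across genes. Myod1 lay between 0.761 and 8.84 CPM in MEFs and between 543 and 5184 CPM in the 10 doxycycline groups, as the labels state, and was lower with F/R/C than with MyoD alone in the mean of days (log2 fold change -1.09, SE 0.25, adjusted p 4.0e-04 by edgeR). MEF replicate 1 held muscle transcripts: the 11 differentiation genes (such as Myog and Ckm) summed to 168 CPM in it and to 55.1 and 79.1 CPM in the other 2 MEF libraries. Bulk myoblast replicate 3 stood apart from its group, with a sum of 1122 CPM against 32640 and 18830 CPM. The 12 fibroblast markers, none of them at 0 in all libraries of any doxycycline group, summed to between 12630 and 33390 CPM in the groups of MyoD alone and to between 1447 and 7369 CPM in those with F/R/C. The list did not move as one: in the mean of days 3 of its genes were called lower with F/R/C (Fn1, Col1a1 and Col1a2) and 4 higher (Lum, Dcn, Pdgfra and Prrx1). Of all genes tested, 10.5% were called lower and 11.6% higher in that comparison. Endothelial, macrophage and osteoclast, Schwann and adipocyte markers summed, list by list, to at most 23.6 CPM in any library. In bulk cultures a smaller share of cells of one type and less RNA per cell cannot be told apart.

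Transcripts of the 2 fusion proteins, Mymk and Mymx, went from near absence to high levels within 2 days. In MEFs Mymk had 5.36, 0 and 0 CPM (122, 0 and 0 reads), and on day 2 it had 1145, 1922 and 1380 CPM with MyoD alone and 350, 719 and 436 CPM with F/R/C. The MEF libraries lay below every doxycycline library. With MyoD alone its mean was 1482 ± 399 CPM on day 2 (SD, n = 3) and 1393, 1253, 753 and 742 CPM on days 4 to 10, and day 10 was not called different from day 2 (log2 fold change -0.998, SE 0.76, adjusted p 0.434). With F/R/C the highest mean came on day 4, at 1158 ± 181 CPM, while the means of days 2 and 10 were 502 and 524 CPM. Mymk was called higher than in MEFs on all 5 days of both arms, with adjusted p between 2.8e-08 and 4.0e-07 (edgeR quasi-likelihood test, called at adjusted p under 0.05 and a change of at least 2-fold). The size of that change rests on MEF replicate 1: the fitted log2 fold change for day 2 with MyoD alone was 9.64, and 18.02 without that library, when the MEFs are at 0 and no fold can be read.

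Mymx rose by day 2 as well, to a lower length-scaled level than Mymk (342 ± 56 against 1856 ± 437 TPM on day 2 with MyoD alone). It had 3, 0 and 0 reads in MEFs. On day 2 it had 96.2, 135 and 136 CPM with MyoD alone and 33.1, 49.5 and 26.6 CPM with F/R/C, and the arms did not overlap. Against a floor of 3 reads per MEF library, 0.154 CPM on average, Mymx was at least 795-fold higher on day 2 with MyoD alone and at least 236-fold higher with F/R/C, and floors cover counting error only. Day 10 had 45.6, 67.1 and 42.3 CPM for MyoD alone and 59.0, 94.0 and 72.6 CPM with F/R/C, and these ranges overlapped. Within MyoD alone, day 10 lay below day 2 without overlap but was not called (log2 -1.24, adjusted p 0.0545); it was called with the replicate number as a block (adjusted p 0.0407). On the length-scaled measure the ratio of Mymx to Mymk with MyoD alone averaged 0.189 ± 0.037 at day 2 and 0.166 ± 0.038 at day 10. It averaged 0.165 ± 0.036 and 0.321 ± 0.051 at the same days with F/R/C. Across the 45 libraries log2 CPM of Mymx and Mymk correlated with r = 0.951, given as a description because libraries of one group share their treatment.

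**Figure D1:**
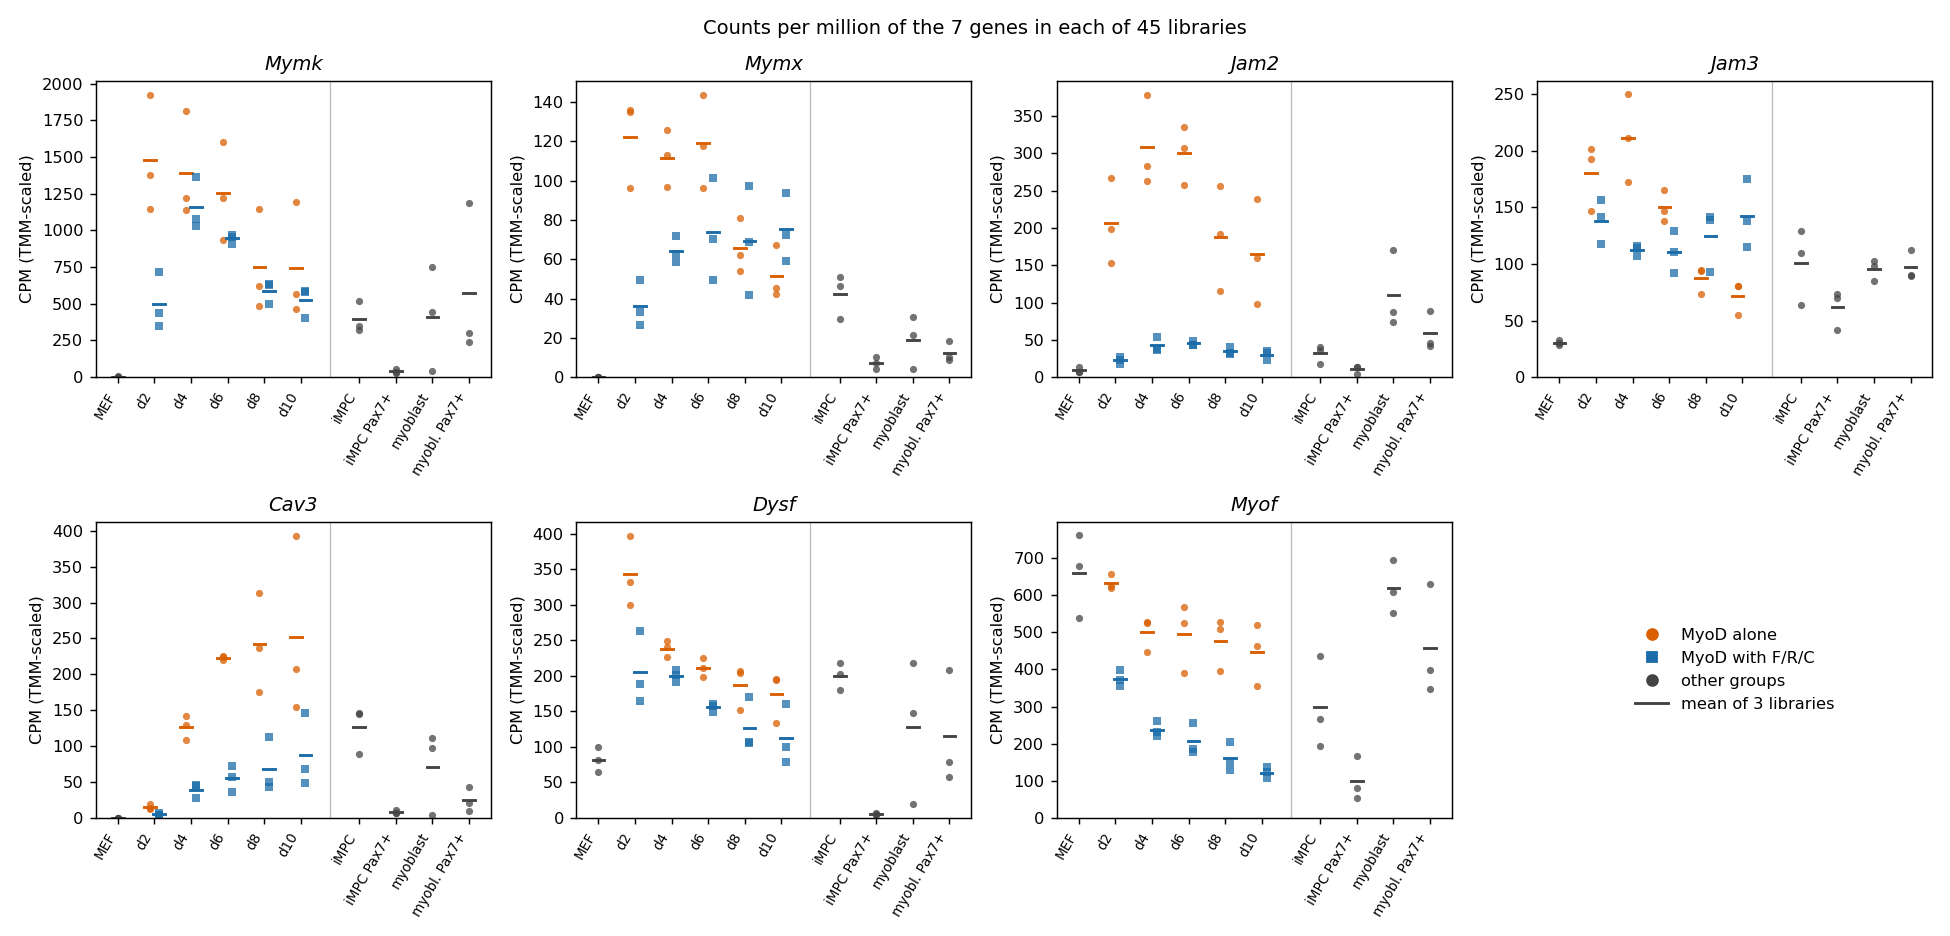
CPM (TMM-scaled, linear axes from 0) of each gene in every library, with days of doxycycline (d2 to d10) on the left of each panel and the 4 reference groups on the right; circles and squares are libraries and bars the mean of 3. Jam2 and Myof lie lower with F/R/C than with MyoD alone, and Cav3 climbs with time in both arms.

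Jam2, an adhesion molecule, was the member with the largest difference between the arms. It had 6.95, 6.78 and 13.2 CPM in MEFs. With MyoD alone it had 154, 267 and 198 CPM on day 2 and 262, 378 and 283 CPM on day 4, and with F/R/C only 17.2, 27.6 and 23.1 CPM and 38.3, 54.3 and 36.8 CPM on the same days. No library with F/R/C on any day reached the lowest library of MyoD alone, 98.4 CPM. Even so, Jam2 was called above MEFs on every day of both arms, by log2 4.53 (SE 0.45, adjusted p 2.5e-09) on day 2 with MyoD alone and by log2 1.34 (SE 0.40, adjusted p 0.0102) on day 2 with F/R/C; the last call was lost without MEF replicate 2 (log2 1.18, adjusted p 0.0521).

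Jam3, the partner of Jam2, started from 28.0, 30.4 and 33.0 CPM in MEFs and was called higher on all 5 days of both arms. With MyoD alone it was highest on day 4, at 173, 211 and 251 CPM, and then fell to 80.4, 80.1 and 55.3 CPM on day 10, a log2 change of -1.33 against day 2 (SE 0.22, adjusted p 1.7e-04). With F/R/C it had 117, 156 and 141 CPM on day 2 and 115, 175 and 138 CPM on day 10, which were not called different (log2 0.05, SE 0.22, adjusted p 0.903). The ratio of Jam2 to Jam3 on the length-scaled measure was 0.160 ± 0.063 in MEFs, 1.09 ± 0.33 on day 10 with MyoD alone and 0.125 ± 0.043 on day 10 with F/R/C.

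Cav3, the muscle caveolin, was above MEFs by day 2 and rose further between day 2 and day 10. It had 2, 0 and 0 reads in MEFs and 19.9, 12.7 and 13.3 CPM on day 2 with MyoD alone. On day 4 it had 142, 129 and 108 CPM and on day 10 it had 207, 393 and 154 CPM. The change from day 2 to day 10 was log2 4.04 (SE 0.66, adjusted p 1.3e-04), and no library of day 2 reached any of day 4. With F/R/C the rise had the same size, log2 4.02 (SE 0.67, adjusted p 8.3e-05), from a lower start: 7.42, 4.55 and 4.14 CPM on day 2 and 48.0, 67.5 and 146 CPM on day 10. The effect of F/R/C on day 10 minus that on day 2 was log2 -0.02 (SE 0.88, adjusted p 0.999). Against the floor of 3 reads Cav3 was at least 99.3-fold higher than in MEFs on day 2 of MyoD alone and at least 1635-fold higher on day 10.

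Dysferlin was already expressed in MEFs, at 81.7, 64.5 and 99.0 CPM, and rose on day 2 to 332, 397 and 300 CPM with MyoD alone (log2 2.07, SE 0.45, adjusted p 4.9e-04). Day 2 of F/R/C had 189, 263 and 164 CPM (log2 1.33 above MEFs, SE 0.44, adjusted p 0.0175). Day 10 had 195, 194 and 133 CPM with MyoD alone and 78.2, 99.8 and 160 CPM with F/R/C. In both arms day 10 lay below day 2 without overlap (log2 -0.98 and -0.87), but neither change was called (adjusted p 0.144 and 0.132). Dysf was called above MEFs on days 2 to 8 of MyoD alone and on days 2 and 4 with F/R/C, and on day 10 it was not called in either arm (adjusted p 0.0549 and 0.378; with MyoD alone DESeq2 called it, adjusted p 0.0477). Several of these calls turn on single libraries: the call of day 6 with MyoD alone was lost without MEF replicate 2 (adjusted p 0.0546), and that of day 8 without any of the 3 MEF libraries or without replicate 1 or 2 of day 8 (adjusted p from 0.0507 to 0.118). With F/R/C, the call of day 2 was lost without MEF replicate 2 or day 2 replicate 2 (adjusted p 0.0698 and 0.0793) and that of day 4 without MEF replicate 2 (adjusted p 0.0593).

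Myof, the other ferlin, was called below MEFs with F/R/C and not with MyoD alone. MEFs had 539, 678 and 763 CPM, and MyoD alone 619, 625 and 658 CPM on day 2 and 464, 355 and 520 CPM on day 10. MyoD alone was not called different from MEFs on any day (adjusted p between 0.125 and 0.894). Its libraries still lay below the MEFs without overlap on days 4, 8 and 10 (log2 -0.40, -0.47 and -0.56). With F/R/C Myof had 399, 370 and 355 CPM on day 2, 261, 219 and 232 CPM on day 4 and 136, 106 and 123 CPM on day 10. The fall below MEFs was called on days 4, 6, 8 and 10 and reached log2 -2.44 (SE 0.29, adjusted p 5.3e-08). On day 2 it was log2 -0.82 (adjusted p 0.0234), short of the 2-fold minimum. From day 2 to day 10 with F/R/C Myof fell by 1.62 on the log2 scale (SE 0.29, adjusted p 1.4e-04). The summed fibroblast markers, given above, were also lower with F/R/C, as Myof and Jam2 were, though that list did not move as one. Jam2, unlike Myof, was low in the MEFs themselves (means of 4.95 and 193 TPM). The part of fibroblast markers in these results was not tested.

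Counted together, 6 of the 7 genes were called higher than in MEFs on days 2, 4, 6 and 8 of MyoD alone (every gene but Myof) and 5 on day 10, while 12.3%, 16.5%, 16.9%, 14.6% and 14.3% of all genes tested were called higher on these days. With F/R/C, 6 were called higher on days 2 and 4 and 5 on days 6, 8 and 10 (Dysf and Myof were not), beside 11.5%, 18.0%, 19.0%, 18.4% and 19.0% of all genes. Myof alone was called lower, on days 4, 6, 8 and 10, beside 13.2%, 13.2%, 13.3% and 15.8% of all genes. All comparisons with MEFs share the same 3 MEF libraries. The median log2 fold change of the 7 genes against MEFs lay between 4.21 and 5.11 over the days of MyoD alone and between 2.03 and 2.34 with F/R/C, with Mymx and Cav3 at their lower bounds, and the median of all genes tested lay between 0.00 and 0.08. Between day 2 and day 10, Cav3 was called higher in both arms (4.50% of all genes called higher with MyoD alone and 9.85% with F/R/C), Jam3 lower with MyoD alone (1.76%) and Myof lower with F/R/C (6.18%).

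The direct comparison of the 2 arms describes how the F/R/C arm differed from MyoD alone. Myod1 itself was lower with F/R/C on day 2, at 723 to 1353 CPM against 1998 to 3575 CPM with MyoD alone. On day 10 its ranges overlapped (607 to 992 against 622 to 2024 CPM). The part of Myod1 in the differences between the arms was not tested. On day 2, 2 of the 7 genes were called lower with F/R/C, beside 2.80% of all genes: Mymx (log2 -1.75, SE 0.43, adjusted p 0.00887) and Jam2 (log2 -3.19, SE 0.42, adjusted p 9.6e-06). Mymk (log2 -1.56, SE 0.77, adjusted p 0.225) and Cav3 (log2 -1.51, SE 0.62, adjusted p 0.134) also lay lower without overlap but were not called. The same held for Dysf (log2 -0.74, adjusted p 0.324) and Myof (log2 -0.76, adjusted p 0.0911). The share of all genes without overlap was not counted. With only the groups compared, edgeR called Mymk and Cav3 (adjusted p 0.0138 and 0.0154). The call of Mymx was lost without replicate 3 of F/R/C (log2 -1.57, adjusted p 0.0753). On days 4, 6, 8 and 10 the same 3 genes, Jam2, Cav3 and Myof, were called lower, beside 6.66%, 7.14%, 9.46% and 13.4% of all genes; no member was called higher on any day, though Jam3 on day 10 was under 9 of 12 alternatives. Jam2 differed by log2 -2.84, -2.73, -2.45 and -2.46 on these days, with adjusted p between 9.2e-06 and 4.8e-05. Myof differed by log2 -1.07, -1.26, -1.57 and -1.88, with adjusted p from 1.0e-05 to 0.00542. The call of Myof on day 4 was lost without MyoD alone replicate 1 or F/R/C replicate 2, where the change fell just short of 2-fold (log2 -0.998 without the latter and -0.995 without the former).

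Cav3 was lower with F/R/C by log2 -1.69, -2.01, -1.81 and -1.53 on days 4 to 10 (adjusted p 0.0392, 0.0136, 0.0196 and 0.0385), and on no day did the arms overlap. These single-day calls rest on few libraries and settings. With no filter on low counts the calls of days 4 and 10 were lost (adjusted p 0.0546 and 0.0691), and with only the groups compared that of day 10 (0.0613). Leaving out any single library of day 4 ended that day's call (adjusted p from 0.0554 to 0.148), and on day 10 the call ended without replicate 1 or 2 of either arm (adjusted p from 0.0611 to 0.228). It also ended on day 6 without F/R/C replicate 2 (0.0776) and on day 8 without F/R/C replicate 1 (0.0749), F/R/C replicate 2 (0.107) or MyoD alone replicate 2 (0.0683). In the mean over the 5 days, Cav3 differed by log2 -1.71 (SE 0.27, adjusted p 2.0e-06) and stayed called without each of the 30 libraries in turn.

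In that mean of days 3 of the 7 genes were called lower, beside 10.5% of all genes: Jam2 by log2 -2.73 (SE 0.18, adjusted p 9.0e-14), Cav3 and Myof by log2 -1.31 (SE 0.13, adjusted p 2.0e-10). No member was called higher, beside 11.6% of all genes. Mymx and Dysf passed the adjusted p but not the 2-fold minimum, at log2 -0.52 (adjusted p 0.0157) and log2 -0.53 (adjusted p 0.0181). Mymk had log2 -0.62 (SE 0.34, adjusted p 0.110) and Jam3 log2 -0.05 (SE 0.10, adjusted p 0.706). None of the 11 differentiation genes was called in that comparison, and their median was log2 -0.04, against -0.03 for all genes tested and -0.62 for the 7 genes.

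**Figure D2:**
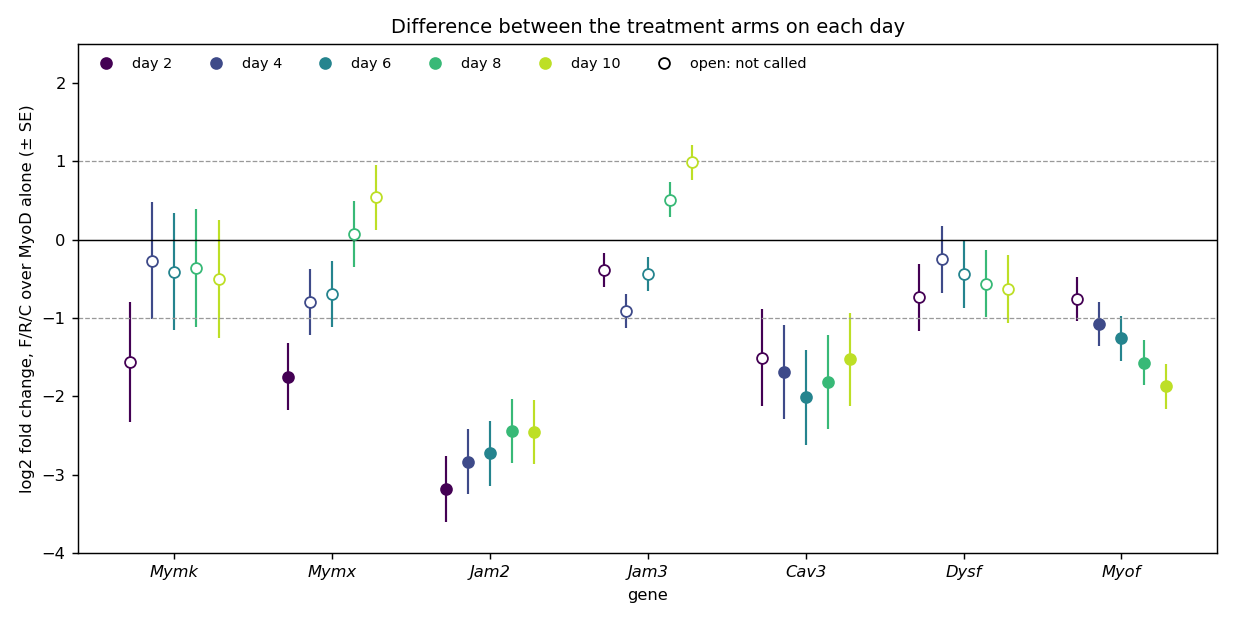
Log2 fold change of F/R/C over MyoD alone (± SE, 3 libraries per arm) for each gene on each day; filled points were called, open points were not, and dashed lines mark 2-fold. Jam2 lies below -2 on every day, Myof moves from -0.76 to -1.88, and Jam3 crosses 0 from -0.38 to 0.99.

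The difference between the arms, here called the effect of F/R/C, changed over time for 2 members. For Jam3 it went from log2 -0.38 on day 2, through -0.91, -0.44 and 0.51, to 0.99 on day 10, and the difference between day 10 and day 2 was log2 1.37 (SE 0.31, adjusted p 0.00839). On day 10 itself the adjusted p was 6.9e-04 and the change was just under 2-fold, with 80.4, 80.1 and 55.3 CPM for MyoD alone below 115, 175 and 138 CPM with F/R/C and no overlap. For Mymx the difference between the days was log2 2.29 (SE 0.60, adjusted p 0.0184), from -1.75 on day 2 to 0.54 on day 10, and it was lost without replicate 2 of F/R/C on day 10 (adjusted p 0.0553). In this contrast 2.24% of all genes were called higher. Myof had a difference of log2 -1.12 (SE 0.40, adjusted p 0.0688), which was called with the replicate number as a block (adjusted p 0.0457).

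The reads of the 2 ferlins were also set against each other. The ratio of Dysf to Myof reads was 0.126 ± 0.029 in MEFs, 0.542 ± 0.091 and 0.408 ± 0.146 for MyoD alone at days 2 and 10, and 0.549 ± 0.141 and 0.938 ± 0.364 with F/R/C at these days (SD, n = 3). The arms overlapped on day 2, did not on days 4 and 6, and touched on day 8 (up to 0.521 for MyoD alone and from 0.521 with F/R/C). On day 10 all 3 libraries with F/R/C lay between 0.573 and 1.30, above the range of MyoD alone, 0.256 to 0.547. As a ratio of TPM the arms overlapped on day 10 (0.632 to 1.46 with F/R/C and 0.286 to 0.676 for MyoD alone). They did not overlap in TPM on day 8 (up to 0.588 for MyoD alone and from 0.665 with F/R/C). Over the 5 days the log2 ratio averaged 0.77 more in the F/R/C arm, with the same sign in 5 of 5 days, with p = 5.1e-05 by a two-sided exact permutation test that exchanged libraries within days (Benjamini-Hochberg adjusted p 0.0001 over 2 such tests). This test was chosen after the values were seen, which the adjustment over 2 tests does not cover. The ratio is built from the same Dysf and Myof reads as the comparisons above. The test also treats the days as independent and the arms as unpaired. Libraries with the same replicate number deviated together between day 10 and day 2 of MyoD alone (r from 0.201 to 0.416). With F/R/C these correlations ran from 0.031 to 0.296. Between the arms, such libraries deviated together on days 2, 4 and 6. Exchanging whole replicate sets, 3 against 3, could not give a p below 0.1.

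The division of Dysf reads between its 2 start regions differed as well. Of its 16 quantified transcripts, 6 full-length ones begin between 84008590 and 84008915, 6 begin between 84019385 and 84019389, and 4 are fragments that were set aside. The share of full-length reads assigned to the downstream start was 23.9%, 8.49% and 25.0% in MEFs. It was 54.3%, 61.3% and 60.5% at day 2 with MyoD alone and 59.9%, 68.4% and 62.2% with F/R/C, above all MEF libraries, and the arms overlapped. On day 10 it was 46.9%, 71.1% and 50.3% with MyoD alone and 67.8%, 83.8% and 83.7% with F/R/C, which overlapped. The arms did not overlap on day 4. They overlapped on day 6 (47.1% to 74.7% with MyoD alone, 66.2% to 71.9% with F/R/C) and on day 8 (40.2% to 63.8% and 57.1% to 79.7%). Over the 5 days the share averaged 11.4 percentage points more in the F/R/C arm, in 5 of 5 days (two-sided exact permutation within days, p = 0.0021, adjusted p 0.0021 over the same 2 tests). The same limits apply, and this test too was chosen after its values were seen. In CPM, transcripts from the upstream start had 63.8 ± 8.2 in MEFs, 138 ± 19 on day 2 of MyoD alone and 22.0 ± 5.3 on day 10 with F/R/C, while those from the downstream start had 16.3 ± 9.8, 198 ± 36 and 88.2 ± 39.7. The transcripts of both kinds share most of their exons, so the division is the quantifier's estimate and rests on reads near the first exon.

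**Figure D3:**
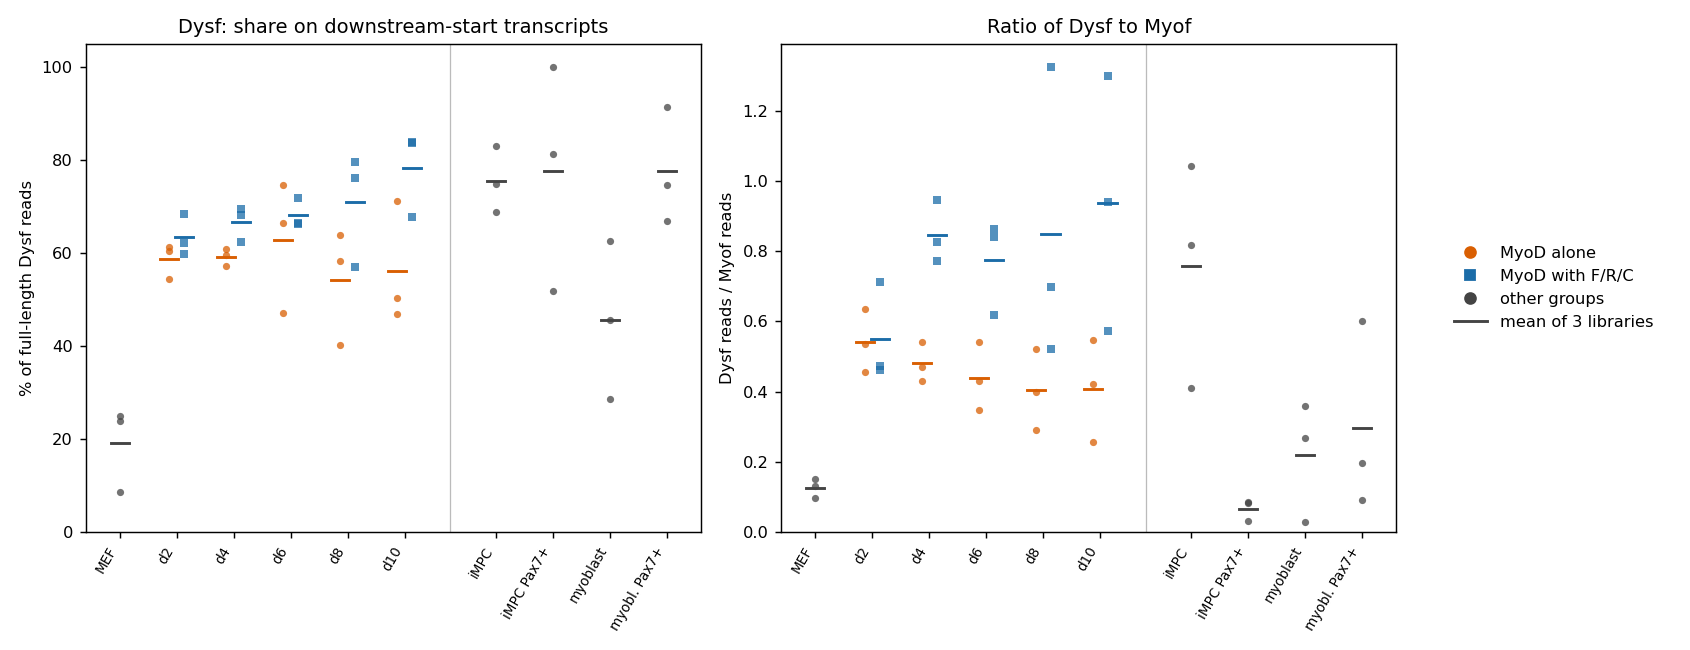
Left, percent of full-length Dysf reads assigned to transcripts of the downstream start; right, ratio of Dysf to Myof reads (CPM over CPM), both per library with bars for the mean of 3. MEFs hold the lowest downstream shares, up to 25.0%, and the ratio is above 0.57 in every day 10 library with F/R/C.

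The iMPC cultures, set beside their starting cells, had 6 of the 7 genes called higher than MEFs (19.2% of all genes) and Myof called lower (16.2%), by log2 -1.14 (SE 0.28, adjusted p 1.0e-03). The call of Myof ended without iMPC replicate 3, where the change was log2 -0.84. Bulk iMPCs had 520, 350 and 324 CPM of Mymk, 46.2, 29.9 and 51.1 CPM of Mymx, 147, 89.1 and 145 CPM of Cav3 and 218, 180 and 202 CPM of Dysf. Bulk myoblasts had 5 genes called higher than MEFs (15.3% of all genes): Mymk, Mymx, Jam2, Jam3 and Cav3. Their replicate 3 was far below the other 2, with 751, 445 and 42.8 CPM of Mymk, 111, 97.0 and 4.40 CPM of Cav3 and 218, 147 and 19.7 CPM of Dysf. Without it Dysf was also called above MEFs (log2 1.16, adjusted p 0.00428).

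Compared with day 10 of F/R/C, bulk iMPCs differed in 1 member: Myof was higher, with 267, 437 and 194 CPM against 136, 106 and 123 CPM (log2 1.30, SE 0.28, adjusted p 0.00143; 3.33% of all genes called higher). Without iMPC replicate 2 the change was log2 0.88 and no member was called. Compared with bulk myoblasts, bulk iMPCs had higher Mymx (log2 1.17, SE 0.43, adjusted p 0.0324; 10.9% of all genes), with overlapping ranges, and lower Jam2 and Myof (8.70% of all genes). Jam2 had 40.9, 17.8 and 37.0 CPM in iMPCs and 171, 87.3 and 74.4 CPM in myoblasts (log2 -1.80, SE 0.40, adjusted p 8.2e-04), with no overlap. The calls of Mymx and Myof did not hold throughout. Mymx was lost without myoblast replicate 1 or 3 and without iMPC replicate 1 or 3 (adjusted p from 0.0512 to 0.181). Myof (log2 -1.05) was lost without myoblast replicate 3 or iMPC replicate 1 or 3, where the change was log2 -0.80 to -0.97.

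Among all groups, iMPCs sorted for Pax7-GFP had the lowest levels of Dysf. They had 4.90, 6.67 and 4.55 CPM, resting on 113, 165 and 88 reads, against 218, 180 and 202 CPM in bulk iMPCs (log2 -5.22, SE 0.52, adjusted p 6.1e-09). Relative to bulk iMPCs 6 of the 7 genes were called lower, every gene but Jam3, beside 20.5% of all genes (the call of Jam2 was lost with only the groups compared, adjusted p 0.0536); 9.88% of all genes and no member were called higher. Mymk fell to 32.6, 56.1 and 31.4 CPM (log2 -3.31, SE 0.82, adjusted p 0.00131) and Cav3 to 6.33, 10.6 and 6.87 CPM (log2 -3.999, SE 0.66, adjusted p 1.3e-05). Jam3 had 69.9, 41.9 and 73.1 CPM against 110, 63.9 and 129 CPM, overlapping ranges, at log2 -0.71 (adjusted p 0.00802). The median of all genes tested was log2 -0.13 in this comparison. Differentiation genes also differed: 9 of 11 were called lower, and their sum was 1382 to 1893 CPM in sorted and 22130 to 28750 CPM in bulk iMPCs. Sorted libraries were quantified with another fragment-length setting than unsorted ones. This setting, the selection of Pax7-GFP-positive cells, the sorting procedure and direct lysis cannot be told apart.

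The 2 sorted groups share sorting and setting. Pax7-positive iMPCs had lower Mymk, Jam2, Cav3, Dysf and Myof than Pax7-positive myoblasts, 5 of the 7 genes, beside 17.6% of all genes called lower and 12.4% called higher. The largest difference among members was in Dysf, with 57.5, 78.5 and 208 CPM in sorted myoblasts (log2 -4.41, SE 0.50, adjusted p 2.6e-08). Mymk had 238, 301 and 1189 CPM in sorted myoblasts (log2 -3.85, SE 0.84, adjusted p 3.5e-04), and Myof had 629, 399 and 347 CPM there against 166, 81.0 and 53.7 CPM in sorted iMPCs (log2 -2.19, SE 0.29, adjusted p 3.6e-07). Differentiation genes moved the same way: 8 of 11 were called lower in sorted iMPCs, with a median of log2 -2.32 against -2.19 for the 7 genes. Their sum was 1382 to 1893 CPM in sorted iMPCs and 4188, 5236 and 14370 CPM in sorted myoblasts, the last in replicate 3, which was also highest for Mymk, Cav3 and Dysf. The part of differentiating cells in the result was not tested. The call of Cav3 (log2 -1.61, adjusted p 0.0300) was lost without that library (log2 -0.93, adjusted p 0.247) and without sorted iMPC replicate 1 or 3 (adjusted p 0.0953 and 0.0929). Between sorted and bulk myoblasts edgeR called no member (2.20% of all genes called higher and 4.03% lower), with adjusted p from 0.0860 for Cav3 to 0.963 for Jam3; DESeq2 called 0, and the unadjusted p was under 0.05 for 2 (Cav3, 0.0143, and Jam2, 0.0252). Without bulk myoblast replicate 3 Cav3 was called lower (log2 -2.11, adjusted p 0.00377), and without sorted myoblast replicate 3 Cav3 and Jam2 were (log2 -2.21 and -1.31).

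**Figure D4:**
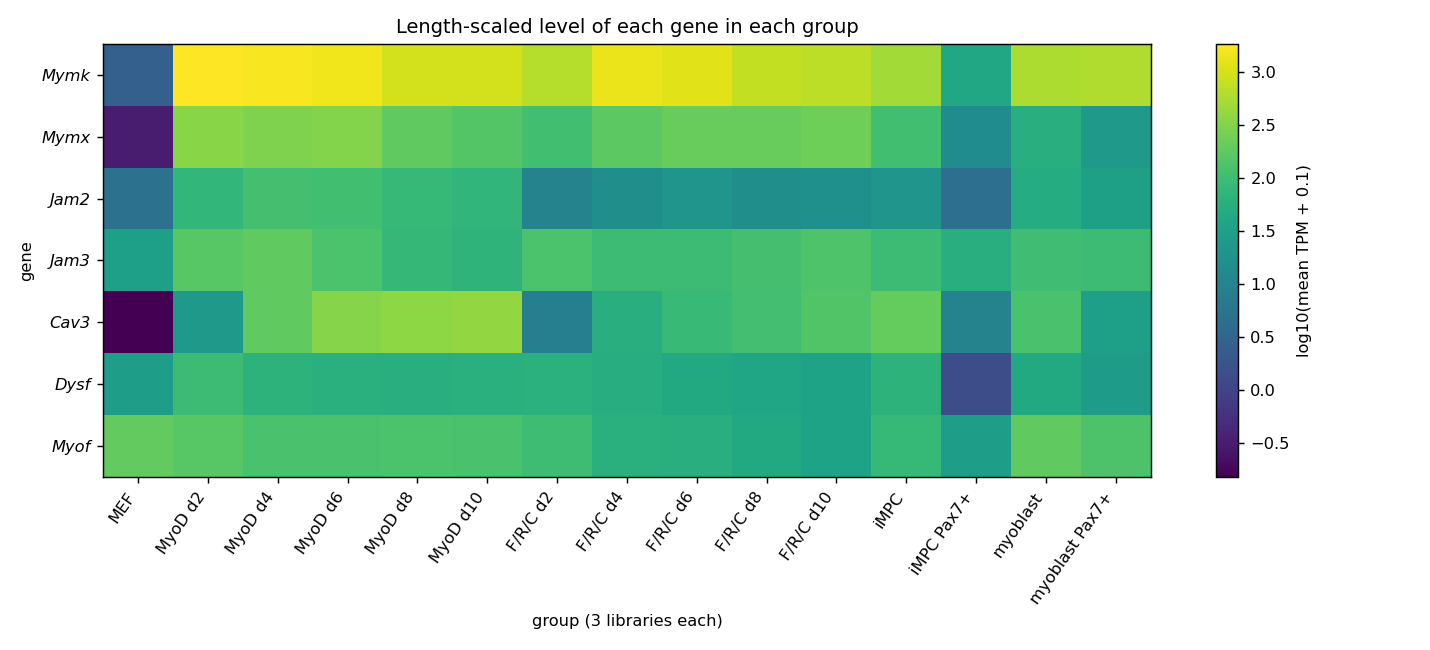
Mean TPM of each gene (rows) in each group of 3 libraries (columns), as log10 of TPM plus 0.1. Mymk reaches the highest length-scaled level of the 7 genes in every doxycycline group, and Dysf is lowest in Pax7-positive iMPCs, at 1.33 TPM.

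Scaled to length, Mymk was the most abundant of the 7 genes in every doxycycline group, from 657 ± 218 TPM on day 2 with F/R/C to 1856 ± 437 TPM on day 2 with MyoD alone. Myof led in MEFs, at 193 ± 29 TPM. Cav3 passed Mymx in length-scaled level on day 6 of MyoD alone (332 ± 16 against 321 ± 51 TPM, within their spread) and on day 10 it had 405 ± 176 against 152 ± 30 TPM, whereas with F/R/C Mymx had the higher mean on each day, with 229 ± 56 against 143 ± 82 TPM on day 10. Ordered by mean CPM, the groups of most genes merged into each other: of the 14 pairs of neighbouring groups, ranges did not overlap in 3 for Mymk, Cav3 and Dysf, in 2 for Mymx and in 1 for Jam2, Jam3 and Myof. Dysf on day 2 of MyoD alone stood above every other group, and Pax7-positive iMPCs below all. For Mymk, Mymx, Jam3 and Cav3 the MEFs stood below every other group, and for Jam2 the MEF and Pax7-positive iMPC ranges, the lowest ones, overlapped. Mymk reads came almost entirely from Mymk-201, except that 10.8% to 18.0% were assigned to Mymk-202 in sorted myoblasts and 9.16% to 23.3% in sorted iMPCs, which differ from the rest in setting as well.

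Other genes of fusion and repair were taken from lists written for this work. Of 34 other fusion genes 30 were tested, and in the mean of days 3 were called higher with F/R/C than with MyoD alone and 4 lower, shares near the 11.6% and 10.5% of all genes, with a median of log2 -0.39. The higher ones were Stab2, a phosphatidylserine receptor (log2 2.00, SE 0.52, adjusted p 0.00125), Elmo1, an adaptor that activates Rac (log2 1.67, SE 0.24, adjusted p 4.3e-07), and Cdon, a cell surface receptor of myoblasts (log2 1.11, SE 0.17, adjusted p 1.4e-06). The lower ones were the integrin Itgb1 (log2 -1.29), Dock5 (log2 -1.27), the scaffold gene Tanc1 (log2 -1.27) and the tetraspanin Cd9 (log2 -1.11). Against MEFs on day 10, 5 of the 30 were called higher and 0 lower with MyoD alone (14.3% and 4.64% of all genes), and 6 higher and 12 lower with F/R/C (19.0% and 15.8% of all genes). Cdh15, the muscle cadherin, was among the higher ones in both arms (log2 6.81 and 7.71), and its MEF level ranged from 0.127 to 10.9 CPM.

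Of 23 other membrane repair genes, all tested, 1 was called higher and 7 lower with F/R/C than with MyoD alone in the mean of days (11.6% and 10.5% of all genes), with a median of log2 -0.73. Syt7, a calcium sensor of lysosome exocytosis, was the higher one (log2 1.28, SE 0.35, adjusted p 0.00205). The lower ones with the largest changes were Anxa1 (log2 -1.79, adjusted p 3.8e-08), Capn3 (log2 -1.74, adjusted p 1.7e-06), Capn2 (log2 -1.64, adjusted p 7.5e-13) and S100a11 (log2 -1.48, adjusted p 3.0e-09), which are an annexin, 2 calpain proteases and an annexin partner. Anxa2 was lower by log2 -1.16 (adjusted p 2.3e-07). Trim72 (MG53), which gathers vesicles at membrane wounds, was not called (log2 -0.54, adjusted p 0.0711), and it had 526 ± 257 CPM on day 10 with MyoD alone, 335 ± 94 CPM with F/R/C and from 0.0929 to 1.10 CPM in MEFs. Cavin4, a muscle partner of caveolins, and Cavin1 were lower by less than 2-fold (log2 -0.92, adjusted p 0.00146, and log2 -0.94, adjusted p 6.7e-08).

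Among 8 relatives of the 7 genes, 6 were tested, 1 was called higher with F/R/C and 4 lower in the mean of days (11.6% and 10.5% of all genes), with a median of log2 -1.09. F11r, another junctional adhesion molecule (log2 -2.34, SE 0.29, adjusted p 2.6e-08), Cav2 (log2 -1.55, adjusted p 4.6e-06), Cavin3 (log2 -1.13, adjusted p 1.8e-06) and Cav1 (log2 -1.06, adjusted p 1.5e-04) were lower. Fer1l6, another ferlin, was higher (log2 2.27, SE 0.46, adjusted p 7.5e-05). In sorted against bulk iMPCs, 9 of 30 other fusion genes and 10 of 23 other repair genes were called lower (20.5% of all genes) and 2 and 0 higher (9.88%); Capn3 (log2 -5.36), Trim72 (log2 -4.84) and Cavin4 (log2 -4.83) were the 3 repair genes with the largest changes.

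**Figure D5:**
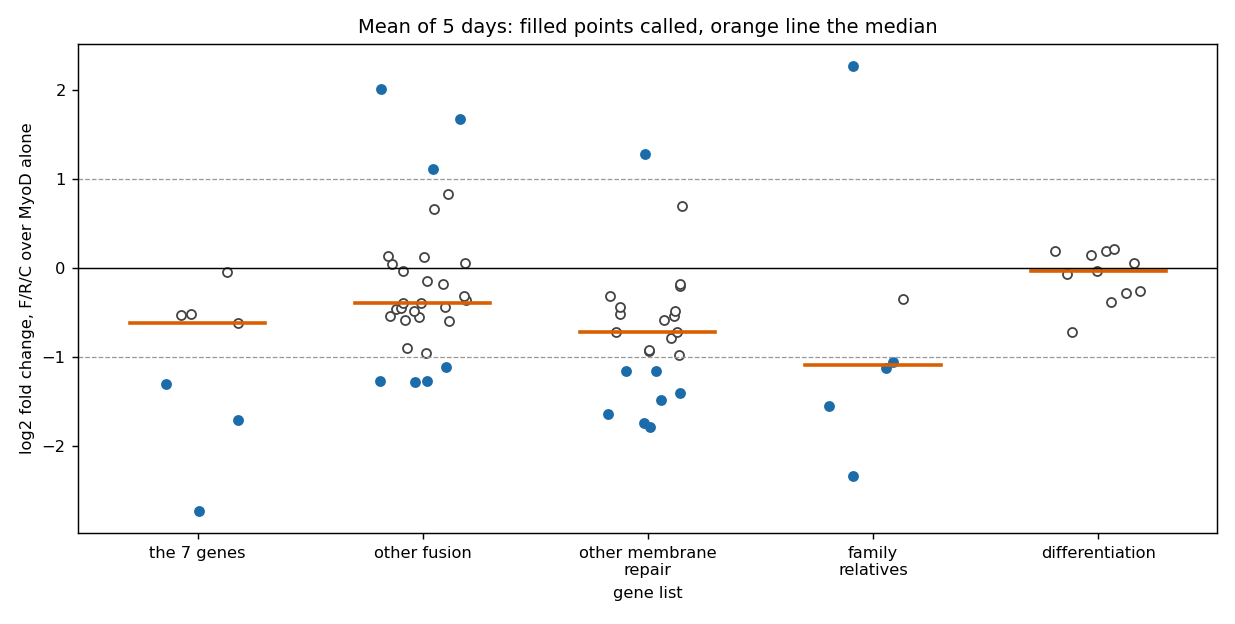
Log2 fold change of F/R/C over MyoD alone in the mean of 5 days for every tested gene of 5 lists; filled points were called, orange lines are medians and dashed lines mark 2-fold. The 11 differentiation genes lie around 0, and the other membrane repair genes have a median of -0.73.

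The genes whose log2 CPM followed each member most closely over the 45 libraries are given as a description, since libraries share treatments and days. Mymk was most like Mybph (r = 0.991), Tnnt2 (0.991) and Tnni1 (0.986), and Mymx was most like Smyd1 (0.969), Shisa2 (0.963) and Fndc5 (0.962). Cav3 was most like Csrp3 (0.967), Apobec2 (0.966) and Mypn (0.949). Jam2 was most like Adamtsl2 (0.948), Csdc2 (0.941) and Inppl1 (0.923), and Jam3, with the lowest leading value, was most like Mum1l1 (0.870), Lzts1 (0.863) and Kcnk13 (0.856). Dysf was most like 1810013L24Rik (0.945), Slco3a1 (0.941) and Cpeb4 (0.935). Myof was most like Actr2 (0.944), Rab31 (0.934) and Gpx8 (0.933). Between members, r ran from -0.179 for Mymx and Myof to 0.951 for Mymk and Mymx, and that of Dysf and Myof was 0.470.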

How the data were processed

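Per the labels' protocols, poly-A RNA was made into TruSeq Stranded mRNA libraries and read from 1 end in reads of 100 bases. Per the submitters' processing notes, bcl2fastq 2.19, Trimmomatic 0.36, kallisto 0.44 and edgeR 3.28 were used with GRCm38.p6. Per the file headers, the deposited values are estimated counts and TPM per transcript, in the layout that kallisto writes, 1 file per library. Of 121843 transcripts 121104 matched GENCODE M21. Estimated counts were summed per gene, rounded to whole numbers and fitted with edgeR 4.0.16 in R 4.3.3 (TMM, filterByExpr, quasi-likelihood test), all 45 libraries in 1 model with 30 residual degrees of freedom and no replicate block. Genes were called at Benjamini-Hochberg adjusted p under 0.05 over 17325 genes with a change of 2-fold or more either way. Standard errors come from the fold change and the F statistic. CPM used TMM library sizes. Sorted libraries carry another fragment-length setting, seen in the gap between transcript length and effective length in the deposited files, which enters their TPM. Alternatives were RLE size factors, no filter, DESeq2 1.42.0, the compared groups alone, a replicate block, each library left out and no minimum fold. Replicate numbers of the titles paired samples (every correlation of deviations over 0.1) only for F/R/C against MyoD alone on days 2, 4 and 6 (r from 0.223 to 0.375) and for day 10 against day 2 of MyoD alone (0.201 to 0.416). Named genes are the 7 members, up to 4 called genes per list and direction by fold change, Trim72, Capn3, Cavin4, Cavin1, Cav1, Anxa1 and Anxa2, and the 3 genes most like each member; the 7 fibroblast markers named were chosen after their values were seen. The members and lists were chosen with earlier results of these data known. The 2 within-day permutation tests, on the Dysf start share and the ratio of Dysf to Myof, were chosen after those values were seen. The fit was tested on simulated data. Replicates differed by more than counting noise in every group.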

Additional observations from a re-analysis of the deposited data

Results flagged for a closer look

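The effect of F/R/C differed between day 10 and day 2, by the interaction term of the edgeR model, for 2 of the 7 genes. For Mymx the difference was log2 2.29 (SE 0.60, adjusted p 0.0184): F/R/C libraries lay below those of MyoD alone on day 2 and overlapped them on day 10. That call was lost without replicate 2 of F/R/C on day 10 (adjusted p 0.0553). For Jam3 it was log2 1.37 (SE 0.31, adjusted p 0.00839): the arms overlapped on day 2, and the 3 F/R/C libraries lay above those of MyoD alone on day 10.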

How the results depend on the processing

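Over the alternatives, 2394 values of the 182 member results were recomputed: 2312 kept their side of the threshold, 47 lost a call, 35 gained one and 0 reversed. The number of members called moved by more than 1.5 times in some settings, given below. The ranges with single libraries left out are given whether or not the number moved that far. With only the groups compared, F/R/C against MyoD alone on day 2 had 4 calls in place of 2 (Mymk, log2 -1.54, adjusted p 0.0138, and Cav3 were added), and bulk iMPCs against bulk myoblasts had 1 in place of 3. With no minimum fold change, the mean of days had 5 in place of 3. Leaving out single libraries gave 1 to 2 calls for day 2, 1 to 2 for day 4 (3 with all libraries), 2 to 3 for day 6 and day 8, 2 to 4 for day 10, 3 to 3 for the mean of days and 1 to 2 for the change of the effect between days 2 and 10. It gave 0 to 1 for bulk iMPCs against day 10 with F/R/C, 1 to 3 for bulk iMPCs against bulk myoblasts and 0 to 2 for sorted against bulk myoblasts. The replicate block added Mymx to the change of MyoD alone from day 2 to day 10 (log2 -1.24, adjusted p 0.0407; 0.0545 without the block) and Myof to the change of the effect (adjusted p 0.0457), and changed no other call of a member. Jam3 on day 10 was called under 9 of 12 alternatives: DESeq2, RLE size factors, no filter, only the groups compared (log2 1.06, 1.06, 1.10 and 1.07), no minimum fold change and 4 of the 6 libraries left out. The cause of these changes was not tested. With 3 libraries a group, changes near 2-fold in variable genes such as Mymk (SE 0.75 or more on single days) are not resolved.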
